A study of Mus musculus with 28 samples.

Results

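The fibrillar collagens examined here were 9 genes of the 22552 listed in each table, Col1a1, Col1a2, Col2a1, Col3a1, Col5a1, Col5a2, Col5a3, Col11a1 and Col11a2, found by their symbols in all 4 deposited tables. They were selected on the CPM of Col1a1 and Col1a2, which are higher in SIRT1mKO (KO) than in WT satellite cells in culture and in differentiation medium, so the KO values in these states are given as a description, with no test for these genes or for the collagen pathway genes set beside them. Fibrillar collagens are secreted as procollagens of 3 chains wound into a triple helix, trimmed outside the cell and packed side by side into the fibrils that give tissue its tensile strength. Type I joins chains of Col1a1 and Col1a2, type III is built of Col3a1 alone, and types II and XI are best known from cartilage. Type V, built of Col5a1, Col5a2 and Col5a3, starts fibril assembly, and in skeletal muscle it is known as part of the surroundings that keep satellite cells quiescent.

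Satellite cells are the stem cells of skeletal muscle. PolyA RNA-seq was run on sorted cells of KO and WT mice. The 3 states were quiescent cells straight after isolation (FI), dividing cells grown with bFGF at 12.5 ng/ml and 20% fetal bovine serum (Cul), and cells held for 24 hours in 2% horse serum (Diff). The libraries numbered 3 in KO_FI, 5 in WT_FI, 2 in KO_Cul, 4 in WT_Cul, 2 in KO_Diff and 2 in WT_Diff. WT mice were on a C57Bl/6 background, and the labels give the same background for KO. In KO animals a Pax7cre/+ knock-in, which acts in cells that express Pax7, recombines Sirt1 with a floxed exon 4. The labels do not state whether WT mice carried the Cre, nor the age of the animals or the sorting gate. The libraries lie in 4 separately processed tables, of FI, of Cul and of Diff cells of both genotypes, and of WT_Cul against WT_FI (the table of WT states), and the name of a library gives its group and its index, counted from 0 within the table. Nothing in the labels ties the libraries of a group to different animals or cultures. The p-values therefore cover the spread between these samples alone. In the FI table and the table of WT states that spread may be technical.

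The FI libraries held 28010691 to 65324684 fragments each, those of Cul 75674366 to 82590642, those of Diff 71858446 to 82825550, and the libraries of WT states 24254119 to 31643216. Levels are CPM, fragments relative to the TMM-scaled library size, and errors of means are SD. Sirt1, whose gene total cannot show the loss of a single exon, was at 37.6 to 63.4 CPM in KO_FI and 47.4 to 81.4 in WT_FI, at 33.8 to 46.9 in KO_Cul and 62.2 to 66.8 in WT_Cul, and at 28.8 to 41.4 in KO_Diff and 28.2 to 52.1 in WT_Diff. Libraries stood apart by index in both genotypes. In Cul, Xist, the RNA that silences an X chromosome, was at 0.359 and 1217 CPM in KO libraries 0 and 1 and at 1.06 and 2287 in WT libraries 0 and 1. In Diff, Xist was at 786 and 0.144 CPM in KO and at 1234 and 0.323 in WT, and Myh3, the embryonic myosin of new muscle fibres, was at 4.72 and 3933 CPM in KO and at 0.945 and 612 in WT. By Xist, the libraries of a group in Cul and in Diff were not repeats of a single sample. These genes were chosen after their values were seen, and ratios within each index are given below.

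The promoters of the genes that the results turn on are shown so that the fibril chains can be compared as sequences. RefSeq promoters were at hand for 6 of the 9 genes. Those of 1 type I chain, of the type III chain and of 1 type V chain are printed as the 250 bases before the transcript start in GRCm38.p6, 5′ to 3′, with capitals marking matches, on either strand, to CCAAT (the CCAAT box), GGGCGG (the GC box), TATAAA (the TATA box) or CAGACA (a Smad-type element).
Col1a2 promoter, chr6:4505368-4505617 (plus strand): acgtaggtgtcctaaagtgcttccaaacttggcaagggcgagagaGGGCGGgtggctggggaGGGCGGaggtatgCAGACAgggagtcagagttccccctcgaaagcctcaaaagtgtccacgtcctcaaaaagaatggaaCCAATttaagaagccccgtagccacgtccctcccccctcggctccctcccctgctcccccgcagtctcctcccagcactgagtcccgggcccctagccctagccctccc
Col3a1 promoter, chr1:45311288-45311537 (plus strand): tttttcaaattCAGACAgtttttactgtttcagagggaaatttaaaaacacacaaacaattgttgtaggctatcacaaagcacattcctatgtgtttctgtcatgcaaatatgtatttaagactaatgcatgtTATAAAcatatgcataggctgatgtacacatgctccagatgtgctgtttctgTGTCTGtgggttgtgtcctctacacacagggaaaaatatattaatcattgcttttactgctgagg
Col5a3 promoter, chr9:20815068-20815317 (minus strand): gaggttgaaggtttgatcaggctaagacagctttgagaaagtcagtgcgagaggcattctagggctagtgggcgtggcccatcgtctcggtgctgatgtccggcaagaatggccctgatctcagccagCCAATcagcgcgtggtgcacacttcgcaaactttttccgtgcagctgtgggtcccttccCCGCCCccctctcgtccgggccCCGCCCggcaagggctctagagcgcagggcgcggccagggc
Col1a2 and Col5a3 each held 1 CCAAT match, with its first base 109 and 122 bases before the start, and 2 GGGCGG matches each. Col3a1 held neither, but had 1 TATAAA match 117 bases before the start and 2 CAGACA matches, and Col1a2 had 1 CAGACA match. No matches overlapped in these windows. Among 32851 mouse promoters of the same length, 33.8% held CCAAT, 32.7% GGGCGG, 12.4% TATAAA and 17.1% CAGACA. A match is a description of the letters and was not tied to any measured value. In the RefSeq gene order Col3a1 and Col5a2 are next to each other on chromosome 1, and no other pair of the 9 genes shares a chromosome.

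In quiescent FI cells, the fibrillar collagens were abundant in both genotypes, and none passed the test between KO and WT. Of 15146 genes tested, edgeR's quasi-likelihood test called 0 (0.0%) at an adjusted p under 0.05, with 621 (4.1%) at an unadjusted p under 0.05 and 118 called by DESeq2. Of the 9 collagens 0 were called by either tool and 0 had an unadjusted p under 0.05. The estimate was above 0 for 4 and below 0 for 5, with a median log2 difference of -0.07, beside -0.03 over all genes tested.

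Col3a1, the type III chain, was the most abundant by CPM, at 2464, 2824 and 2668 CPM in KO_FI libraries 0, 1 and 2 and at 2396, 2729 and 2439 in WT_FI. The groups overlapped, and the log2 difference was 0.07 (SE 0.14, edgeR adjusted p 1.0). Col5a3, the third type V chain, was at 1172, 1446 and 1403 CPM in KO_FI and at 1015, 1175 and 945 in WT_FI. It averaged 1340.1 ± 147 CPM in KO_FI and 1045 ± 118 in WT_FI (SD, n = 3 each), a log2 difference of 0.36 (SE 0.16, edgeR adjusted p 1.0), and the lowest KO library lay just below the highest WT library. Within each index Col5a3 was higher in KO, with ratios of 1.15, 1.23 and 1.49. Col5a1 differed by 0.21 on the log2 scale (SE 0.17), and Col5a2, the chain paired with it in most type V molecules, by 0.02 (SE 0.15), with groups that overlapped.

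The type I chains varied far more between libraries than the type III and V chains. Col1a1 was at 1239, 544 and 564 CPM in KO_FI and at 1105, 602 and 751 in WT_FI, and Col1a2 at 1470, 485 and 445 CPM in KO_FI and 1472, 733 and 941 in WT_FI. Library 0 was the highest of both groups, at 2.24 times the mean of the other KO libraries for Col1a1 and 1.63 times in WT, and at 3.16 and 1.76 times for Col1a2. For Col3a1 the same ratios were 0.897 in KO and 0.927 in WT. The log2 differences between genotypes were -0.07 (SE 0.40) for Col1a1 and -0.39 (SE 0.54) for Col1a2 (edgeR, adjusted p 1.0 for both).

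The cartilage chains were low in FI cells and followed library 0 still more closely. Col2a1, the type II chain, was at 27.4, 1.92 and 1.11 CPM in KO_FI and at 28.1, 18.8 and 8.50 in WT_FI. Col11a1 was at 52.4, 12.6 and 11.99 CPM in KO_FI and at 50.5, 29.7 and 26.6 in WT_FI, and Col11a2 at 44.9, 9.46 and 9.73 CPM in KO_FI and 44.2, 22.7 and 25.3 in WT_FI. KO matched WT in library 0, with ratios of 0.974, 1.04 and 1.02 for these genes, whereas in libraries 1 and 2 the KO value was lower, with ratios of 0.102 and 0.131 for Col2a1, 0.424 and 0.451 for Col11a1 and 0.416 and 0.384 for Col11a2. None passed the test over all libraries (log2 differences of -0.86, -0.47 and -0.52, SE 1.23, 0.65 and 0.68). Without both libraries of index 0, a setting chosen after the data were seen, the differences were -3.16, -1.19 and -1.32 (edgeR adjusted p 0.189, 0.142 and 0.141), that of Col1a2 was -0.84 (adjusted p 0.387), and none of the 9 genes was called.

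Markers of tendon cells moved with these chains. The summed level of 6 tenocyte markers, all above 0 in every FI library, was 1194, 183 and 206 CPM in KO_FI and 1584, 496 and 764 in WT_FI, and Fmod (fibromodulin, chosen after its values were seen) was at 550.5, 65.0 and 86.3 CPM in KO_FI and 708, 178 and 329.7 in WT_FI. Scx, the tendon transcription factor, was at 9.39 to 13.9 CPM in KO_FI and 7.92 to 13.6 in WT_FI. The summed chondrocyte markers, of which 3 to 4 were above 0, were at 56.4 to 219 CPM in KO_FI and 111 to 241 in WT_FI, and Pdgfra, the receptor that marks fibro-adipogenic progenitors, was at 70.6, 20.2 and 19.5 CPM in KO_FI and 64.8, 12.6 and 24.2 in WT_FI. The pericyte and smooth muscle markers summed to 3615 to 4171 CPM in KO_FI and 3497 to 8453 in WT_FI, the fibroblast markers to 3656 to 4982 CPM in KO_FI and 3254 to 4869.5 in WT_FI, and the endothelial markers to 443 to 662 CPM in KO_FI and 223 to 741 in WT_FI. Tested estimates were above 0 for 0 of 6 tenocyte, 0 of 3 chondrocyte and 0 of 8 pericyte markers. They were above 0 for 10 of 12 fibroblast and 6 of 8 endothelial markers, beside 44.7% of all genes, and none passed. The part of these cell types in the collagen levels was not tested, and in bulk samples fewer cells of a type and less RNA per cell cannot be told apart. Satellite cell markers summed to 5415 to 6204 CPM in KO_FI and 5142 to 7033 in WT_FI, with Pax7 at 905 to 1056 CPM in KO_FI and 832 to 1059 in WT_FI.

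**Figure D1:**
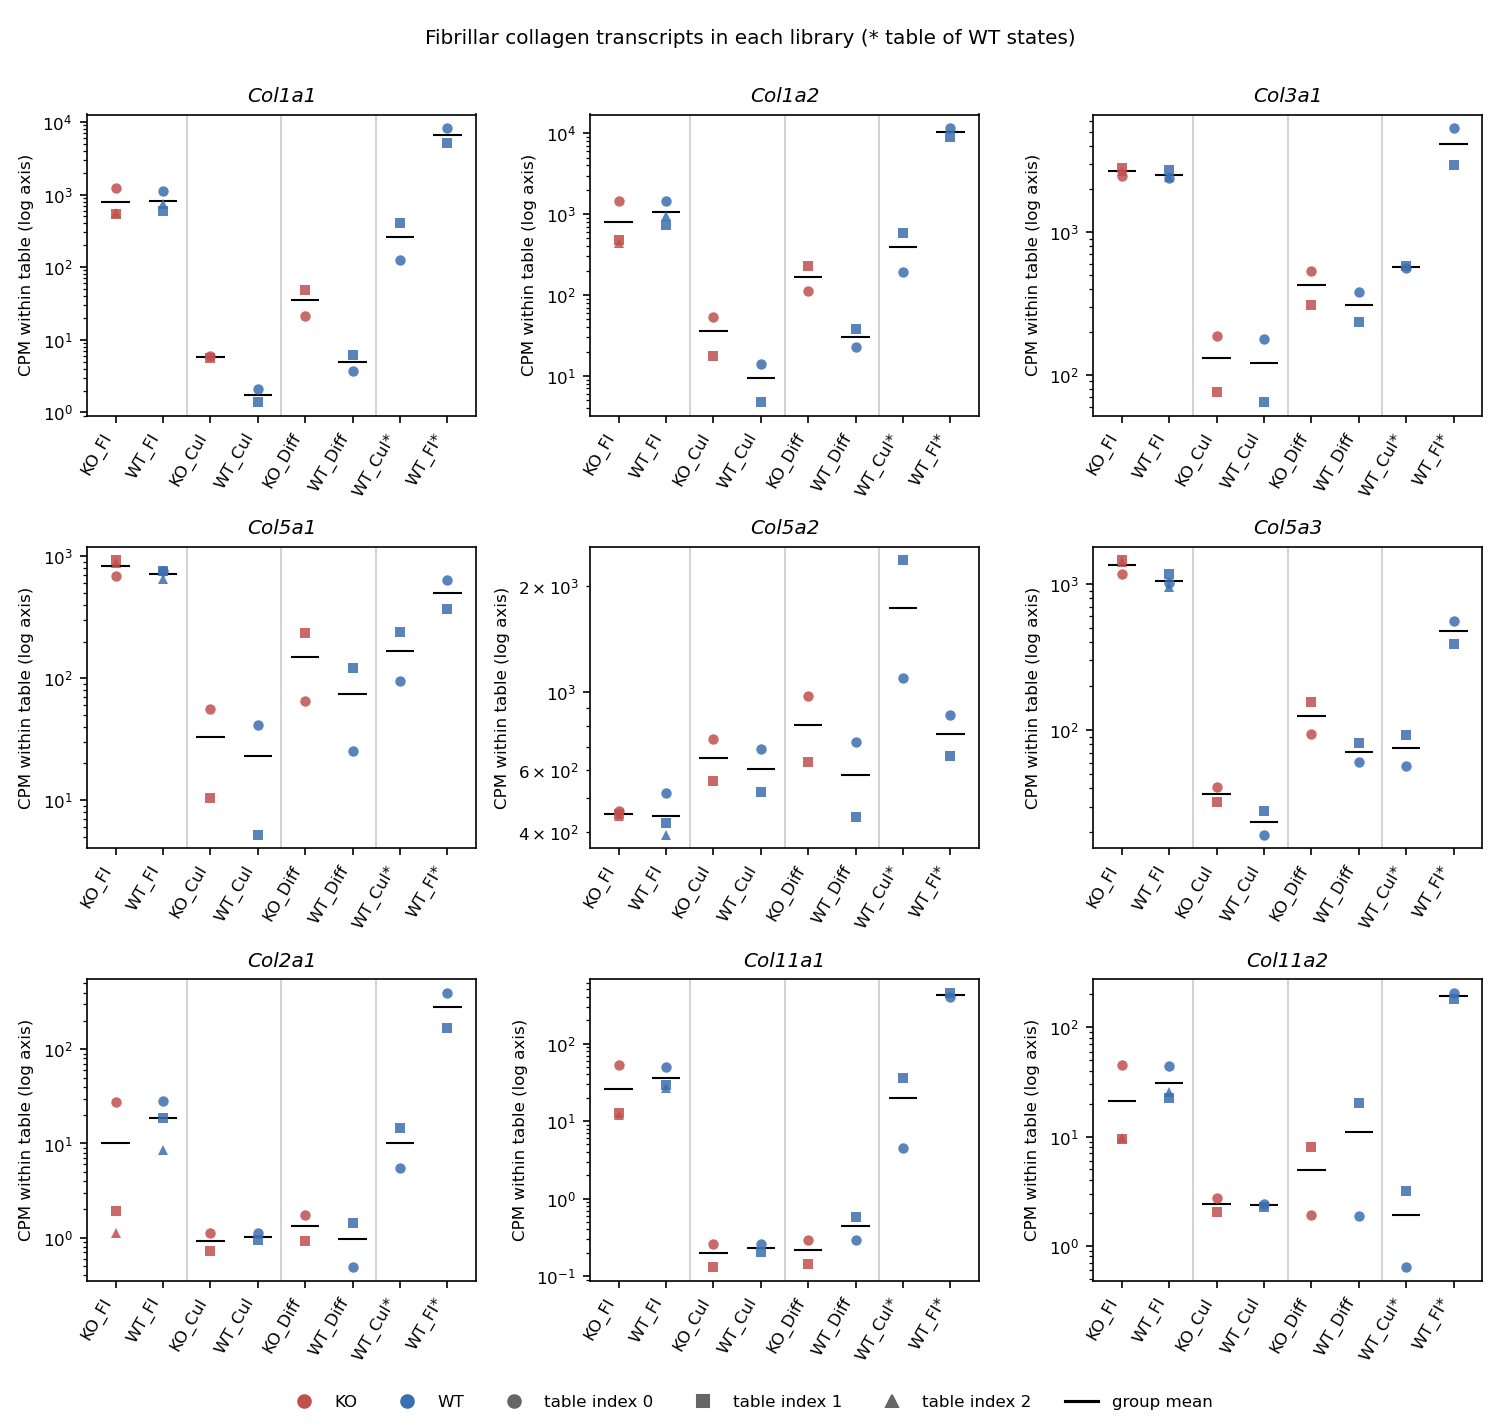
CPM of each fibrillar collagen (log axis) in every library, KO in red left of WT in blue in FI, Cul and Diff, and WT_Cul left of WT_FI of the table of WT states (marked *). Marker shape gives the index of the library in its table and black lines give group means. In Diff both KO libraries lie above both WT libraries for Col1a1, Col1a2 and Col5a3.

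In proliferating culture, the type I chains were low in both genotypes and 3 of the 9 collagens were higher in both KO libraries than in both WT libraries: Col1a1, Col1a2 and Col5a3. No gene of 13963 was called by edgeR (0 genes, 0.0%), with 112 (0.802%) at an unadjusted p under 0.05 and 3 called by DESeq2, and 11.8% of all genes tested had both KO libraries above both WT libraries. Of the 9 collagens 7 had an estimate above 0, beside 53.2% of all genes, and 3 without KO_Cul 0 or without WT_Cul 1. Col1a1 and Col1a2 were the basis of the choice, and nothing is read from these counts.

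Col1a1 was at 5.96 and 5.67 CPM in KO_Cul libraries 0 and 1 (432 and 474 fragments) and at 2.11 and 1.38 CPM in WT_Cul (165 and 113 fragments). It averaged 5.82 ± 0.210 CPM in KO_Cul and 1.74 ± 0.523 in WT_Cul (SD, n = 2 each), a log2 difference of 1.74 (SE 0.40). Col1a2 was at 53.1 and 17.7 CPM in KO_Cul and at 13.9 and 4.70 in WT_Cul, a log2 difference of 1.93 (SE 0.74). Library 0 was higher than library 1 in both genotypes for Col1a2, and the KO over WT ratio was 3.82 within index 0 and 3.76 within index 1, against 2.82 and 4.12 for Col1a1. Leaving out single libraries gave log2 differences of 1.46 to 2.07 for Col1a1, and for Col1a2 of 0.92 without KO_Cul 0, 1.35 without WT_Cul 1 and 2.91 without WT_Cul 0.

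The other chains differed less. Col5a3 was at 41.1 and 32.4 CPM in KO_Cul and at 19.3 and 27.8 in WT_Cul (log2 difference 0.64, SE 0.28). Col5a2 was the most abundant fibrillar collagen of culture, at 737 and 559 CPM in KO_Cul and at 689 and 522 in WT_Cul (0.10, SE 0.27). Col3a1 was at 186 and 75.2 CPM in KO_Cul and 178 and 64.1 in WT_Cul, and Col5a1 at 55.6 and 10.5 CPM in KO_Cul and 41.1 and 5.21 in WT_Cul. For both, libraries of one index resembled each other more than libraries of one genotype. The ratios within indices 0 and 1 were 1.05 and 1.17 for Col3a1 and 1.35 and 2.02 for Col5a1. Col2a1, Col11a1 and Col11a2 stayed at or below 2.73 CPM in every library of the Cul table, with Col11a1 at 0.132 to 0.262 CPM in KO_Cul and 0.207 to 0.256 in WT_Cul.

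Among markers of other cells in culture, Pdgfra was at 0.552 and 3.18 CPM in KO_Cul and at 0.256 and 0.828 in WT_Cul, while the sum of the 13 fibroblast markers (12 above 0 in KO_Cul, 11 to 12 in WT_Cul) was 64.7 and 288 CPM in KO_Cul and 85.2 and 290.5 in WT_Cul. The summed pericyte and smooth muscle markers (7 to 8 of 8 above 0) were at 136 and 135 CPM in KO_Cul and at 114 and 59.2 in WT_Cul, with Pdgfrb, a pericyte receptor, at 1.24 and 3.32 CPM in KO_Cul and 0.897 and 0.913 in WT_Cul. The fibroblast list had 8 of 10 tested estimates above 0 (median log2 difference 0.95) and the pericyte list 5 of 5 (median 0.62). Over all genes tested, 53.2% of estimates were above 0. In each library 7 to 11 of the 13 fibroblast markers were under 1 CPM. The tenocyte sum was 59.9 to 74.8 CPM in KO_Cul and 64.6 to 68.9 in WT_Cul, and the tendon marker Tnmd, named after its values were seen, was at 0 to 0.0478 CPM in KO_Cul and 0 to 0.0122 in WT_Cul. The Schwann cell list had 4 of 5 estimates above 0 (median 0.42) and the endothelial list 5 of 8 (median 0.12). Sox10, a Schwann cell transcription factor, was at 3.98 and 7.53 CPM in KO_Cul and 1.60 and 3.43 in WT_Cul, and Pecam1, an endothelial adhesion protein, at 2.18 and 2.77 CPM in KO_Cul and 1.63 and 1.95 in WT_Cul, both without overlap. Acan, the cartilage proteoglycan, was at 0.511 and 0.108 CPM in KO_Cul and at 0.0256 and 0.0243 in WT_Cul, and Ptprc, the pan-leukocyte antigen, was at or below 0.120 CPM in these libraries. Col1a2 was highest in KO library 0 and Pdgfra in KO library 1. Cspg4 of the pericyte list, named after its values were seen, was highest in KO library 0. It was at 67.5 and 36.8 CPM in KO_Cul and 45.4 and 22.5 in WT_Cul. Nothing is read from which library was the highest. The part of these cells in the type I levels was not tested.

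In differentiation medium, the 6 chains of types I, III and V were higher in the KO than in the WT library of the same index, most of all the type I chains. The same held for these chains in Cul. How many of all genes were higher in KO within both indices was not counted, so nothing is read from the number of chains. No gene of 14482 was called by edgeR (0 genes, 0.0%) and 0 by DESeq2, with 27 (0.186%) at an unadjusted p under 0.05. Both KO libraries lay above both WT libraries for Col1a1, Col1a2 and Col5a3, and below them for Col11a1, beside 6.39% and 6.85% of all genes tested in these directions. The estimate was above 0 for 7 of the 9 collagens, beside 49.2% of all genes.

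Col1a1 was at 21.4 and 49.1 CPM in KO_Diff libraries 0 and 1 and at 3.70 and 6.25 in WT_Diff. It averaged 35.3 ± 19.6 CPM in KO_Diff and 4.97 ± 1.80 in WT_Diff (SD, n = 2 each), a log2 difference of 2.83 (SE 0.63). Col1a2 was at 111 and 227 CPM in KO_Diff and at 22.7 and 38.5 in WT_Diff (2.46, SE 0.55). Library 1 was the higher in both genotypes, and within indices 0 and 1 the ratios were 5.79 and 7.86 for Col1a1 and 4.89 and 5.89 for Col1a2. Leaving out single libraries gave 2.14 to 3.30 for Col1a1 and 1.90 to 2.89 for Col1a2. That the difference between genotypes is larger in Diff than in Cul or FI was not tested.

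Col5a3 was at 94.0 and 157 CPM in KO_Diff and at 60.5 and 81.3 in WT_Diff (0.82, SE 0.43). Col5a1 was at 64.7 and 234 CPM in KO_Diff and at 25.4 and 122 in WT_Diff, with ratios of 2.55 and 1.91 within indices 0 and 1 and groups that overlapped. Col5a2 and Col3a1, the neighbours on chromosome 1, had within-index ratios of 1.35 and 1.44 and of 1.41 and 1.33. Col5a2 was at 976 and 634 CPM in KO_Diff and 723 and 441 in WT_Diff, and Col3a1 at 534 and 310.3 CPM in KO_Diff and 378 and 234 in WT_Diff, both higher in library 0, the opposite of the type I chains. Col2a1 and Col11a1 stayed at or below 1.73 CPM in both groups, and Col11a2 was at 1.93 and 7.99 CPM in KO_Diff and 1.86 and 20.1 in WT_Diff.

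The summed pericyte and smooth muscle markers (8 of 8 above 0 in KO_Diff, 6 to 7 in WT_Diff) were at 304 and 3260 CPM in KO_Diff and at 168 and 1605 in WT_Diff. All 6 tested estimates were above 0 (median log2 difference 1.23), beside 49.2% of all genes. Most of this sum was Acta2, smooth muscle actin, at 148 and 2972 CPM in KO_Diff and 62.8 and 1409 in WT_Diff, while the pericyte gene Rgs5 was at 0.0116 and 0.0262 CPM in KO_Diff and 0 in both WT_Diff libraries (both named after their values were seen). Pdgfrb was at 4.64 and 15.5 CPM in KO_Diff and at 0.956 and 3.83 in WT_Diff. The fibroblast sum was 349 to 390.2 CPM in KO_Diff and 344 to 385 in WT_Diff (11 to 12 of 13 above 0 in KO_Diff, 11 in WT_Diff), and Pdgfra was at 5.45 and 0.997 CPM in KO_Diff and 2.90 and 1.75 in WT_Diff. Tenocyte markers summed to 88.3 to 115 CPM in KO_Diff and 68.7 to 145 in WT_Diff, of which Scx made up 80.8 and 112 in KO_Diff and 64.9 and 143 in WT_Diff. The endothelial list had 6 of 8 estimates above 0 (median 1.09), with sums of 11.1 and 4.93 CPM in KO_Diff and 10.5 and 3.10 in WT_Diff. Pecam1 was at 1.60 and 0.813 CPM in KO_Diff and 0.797 and 0.161 in WT_Diff, without overlap. Sox10 was at 3.20 and 1.99 CPM in KO_Diff and 1.64 and 3.58 in WT_Diff, while Acan and Ptprc were at or below 0.235 CPM in both groups. Col1a2 was highest in KO library 1, where Acta2 was highest and Pdgfra lower than in KO library 0. Myh3, which is in none of the marker lists, was highest there too, at 4.72 and 3933 CPM in KO_Diff and 0.945 and 612 in WT_Diff. Nothing is read from which library was the highest, and the part of other cell types, or of muscle differentiation, in the result was not tested.

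**Figure D2:**
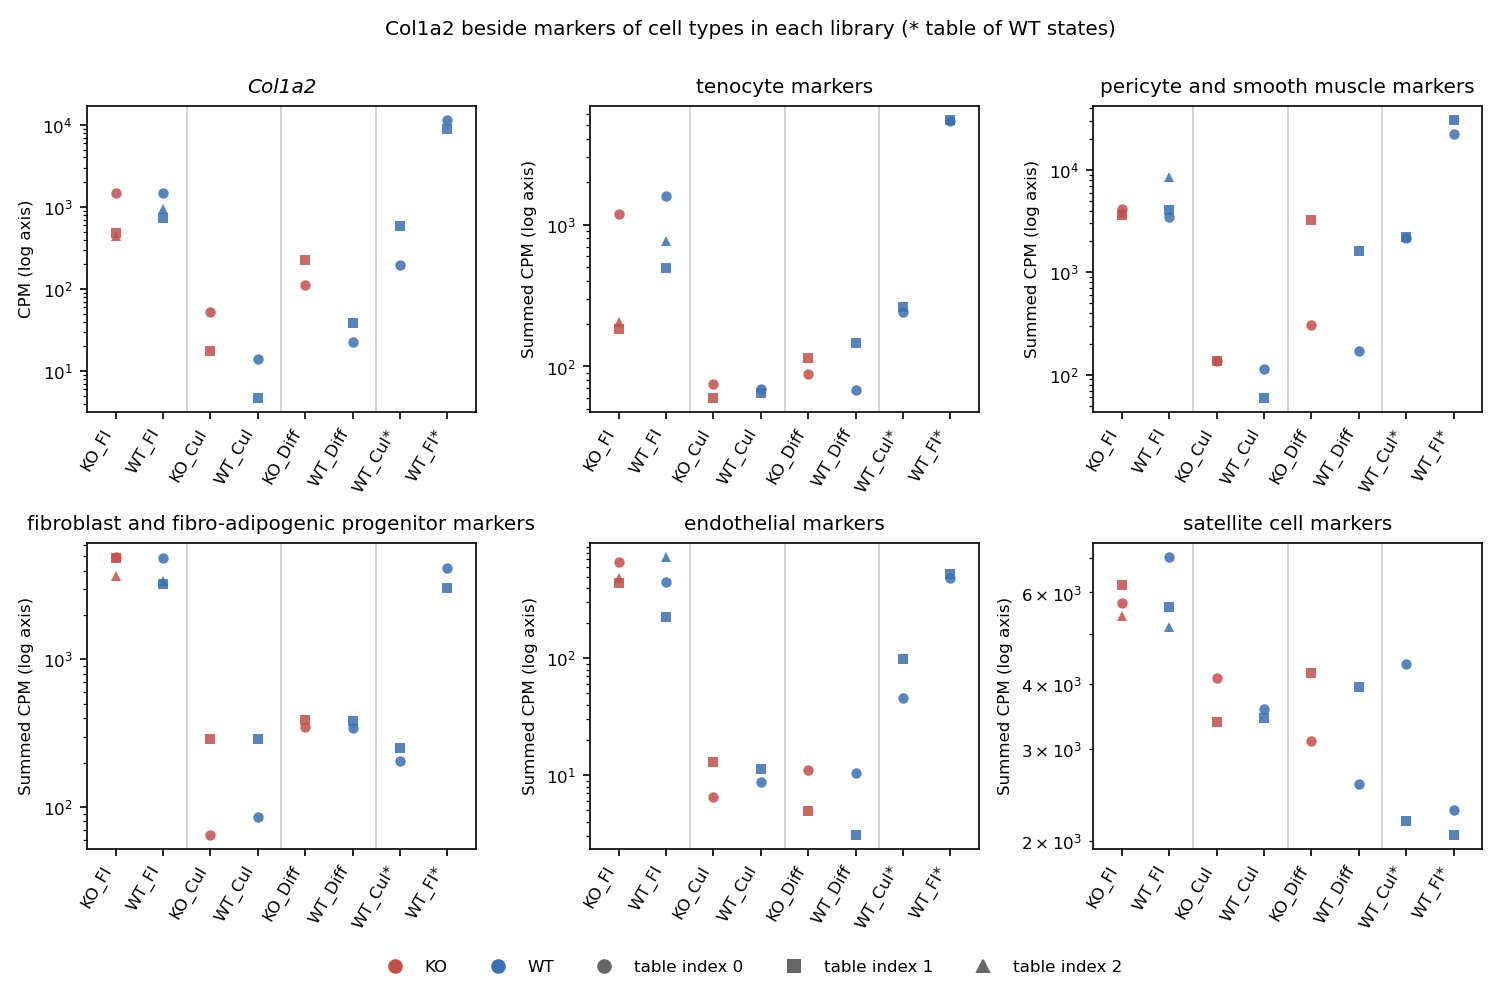
CPM of Col1a2 and summed CPM of 5 marker lists in every library (log axis), KO in red left of WT in blue. In the FI table, library 0 has the highest Col1a2 level and the highest tenocyte sum in both genotypes, 1194 CPM in KO_FI and 1584 in WT_FI.

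Between proliferating and quiescent WT cells, most fibrillar collagens fell in culture, while the type V chains Col5a1 and Col5a2 did not pass the test. In the table of WT states, 7 of the 9 genes passed and were lower in WT_Cul than in WT_FI, where 16.0% of the 14680 genes tested were called lower and 12.6% higher, 4200 (28.6%) in all. With 1 library left out, the count over all genes was 8050 without WT_Cul 1, 2108 without WT_FI 0 and 2063 without WT_FI 1, and 6 to 8 of the 9 passed. The median log2 difference of the 9 was -4.41, beside 0.06 over all genes tested, and the estimate was above 0 for 1 of the 9, beside 51.6% of all genes. Both WT_Cul libraries lay below both WT_FI libraries for 8 of the 9, as for 35.4% of all genes, and 8 had an unadjusted p under 0.05, as had 44.3%.

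The type I chains were at 124 and 400.0 CPM (Col1a1) and at 194 and 579.9 CPM (Col1a2) in WT_Cul libraries 0 and 1. In WT_FI they were at 8179.7 and 5181 CPM (Col1a1) and at 11535 and 8936 CPM (Col1a2). Col1a1 averaged 262 ± 195 CPM in WT_Cul and 6680.3 ± 2120.4 CPM in WT_FI (SD, n = 2 each), and its log2 difference was -4.67 (SE 0.79, edgeR adjusted p 0.0175). That of Col1a2 was -4.73 (SE 0.74, edgeR adjusted p 0.0159). Col3a1 was at 564 and 573 CPM in WT_Cul, against 5325 and 2950.5 in WT_FI, a log2 difference of -2.86 (SE 0.50, edgeR adjusted p 0.0183). Without WT_FI 0 the difference of Col3a1 was -2.38 and no longer passed (adjusted p 0.0892).

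The estimates of the type V chains had different signs. Col5a3 fell to 57.1 and 92.8 CPM in WT_Cul, against 562 and 386 in WT_FI (-2.66, SE 0.46, edgeR adjusted p 0.0183). Col5a1 was at 94.4 and 238 CPM in WT_Cul, against 637 and 367 in WT_FI, a log2 difference of -1.59 (SE 0.60) that did not pass (edgeR adjusted p 0.101, 0.0219 with DESeq2, and 0.00471 without WT_Cul 1). Col5a2 was the sole chain with an estimate above 0, at 1092.5 and 2358 CPM in WT_Cul, against 860.4 and 659 in WT_FI. Its groups did not overlap, as for 35.5% of all genes in this direction, and its log2 difference of 1.18 (SE 0.52) did not pass (edgeR adjusted p 0.144, 0.0138 without WT_Cul 0).

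The cartilage chains fell as well. Col11a2 was at 0.640 and 3.20 CPM in WT_Cul, against 208 and 181 in WT_FI (-6.65, SE 0.91, edgeR adjusted p 0.0138). Col2a1 was at 5.44 and 14.6 CPM in WT_Cul, against 399 and 169.9 in WT_FI (-4.82, SE 0.77, adjusted p 0.0161). Col11a1 was at 4.52 and 35.7 CPM in WT_Cul, against 403 and 454 in WT_FI (-4.41, SE 1.05, adjusted p 0.0350), a difference of -6.58 without WT_Cul 1 and -3.63 without WT_Cul 0. The further fibrillar collagens Col24a1 and Col27a1, which were not among the 9, also fell (log2 differences of -6.05 and -1.90, adjusted p 0.0241 and 0.0334), and Col27a1 no longer passed without WT_FI 0 or WT_FI 1 (adjusted p 0.0884 and 0.139).

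The summed markers of 7 other cell types were also lower in WT_Cul. The tenocyte markers summed to 242 to 263 CPM in WT_Cul and 5360 to 5476 in WT_FI (5 of 6 passed, lower, all 6 above 0 in every library). The pericyte and smooth muscle markers summed to 2151 to 2192 CPM in WT_Cul and 22543 to 30908 in WT_FI (6 of 8 passed, lower), the fibroblast markers to 206 to 249.9 CPM in WT_Cul and 3056 to 4191 in WT_FI (6 of 11 passed, lower), and the endothelial markers to 45.6 to 97.9 CPM in WT_Cul and 484 to 528 in WT_FI (6 of 8 passed, lower). The Schwann cell markers summed to 236 to 649 CPM in WT_Cul and 2069 to 2092 in WT_FI (2 of 5 passed, lower). The chondrocyte markers summed to 72.0 to 76.7 CPM in WT_Cul and 295 to 354 in WT_FI (1 of 3 passed, lower, and 1 estimate was above 0). The macrophage and leukocyte markers summed to 15.5 to 25.4 CPM in WT_Cul and 193 to 241 in WT_FI (1 of 7 passed, lower, and 1 estimate was above 0). Over all genes tested, 16.0% were called lower. Scx was the tenocyte marker with a higher level in culture, at 175 and 23.1 CPM in WT_Cul, against 21.2 and 11.4 in WT_FI, and did not pass (adjusted p 0.106, edgeR). The part of these cells in the fall of the collagens was not tested. Satellite cell markers summed to 2186 to 4379 CPM in WT_Cul and 2056 to 2299 in WT_FI. Of this sum, Myod1 (named after its values were seen) made up 2404 and 685 CPM in WT_Cul and 45.0 and 13.9 in WT_FI. Of the 9 markers 6 had an estimate below 0, and 2 passed lower and 1 higher. Pax7, which defines satellite cells, was at 19.7 and 70.6 CPM in WT_Cul, against 138 and 117 in WT_FI of this table, whereas WT_FI of the FI table had 832 to 1059 CPM. Pdgfrb was at 43.8 and 202 CPM in WT_Cul, against 781 and 832 in WT_FI.

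**Figure D3:**
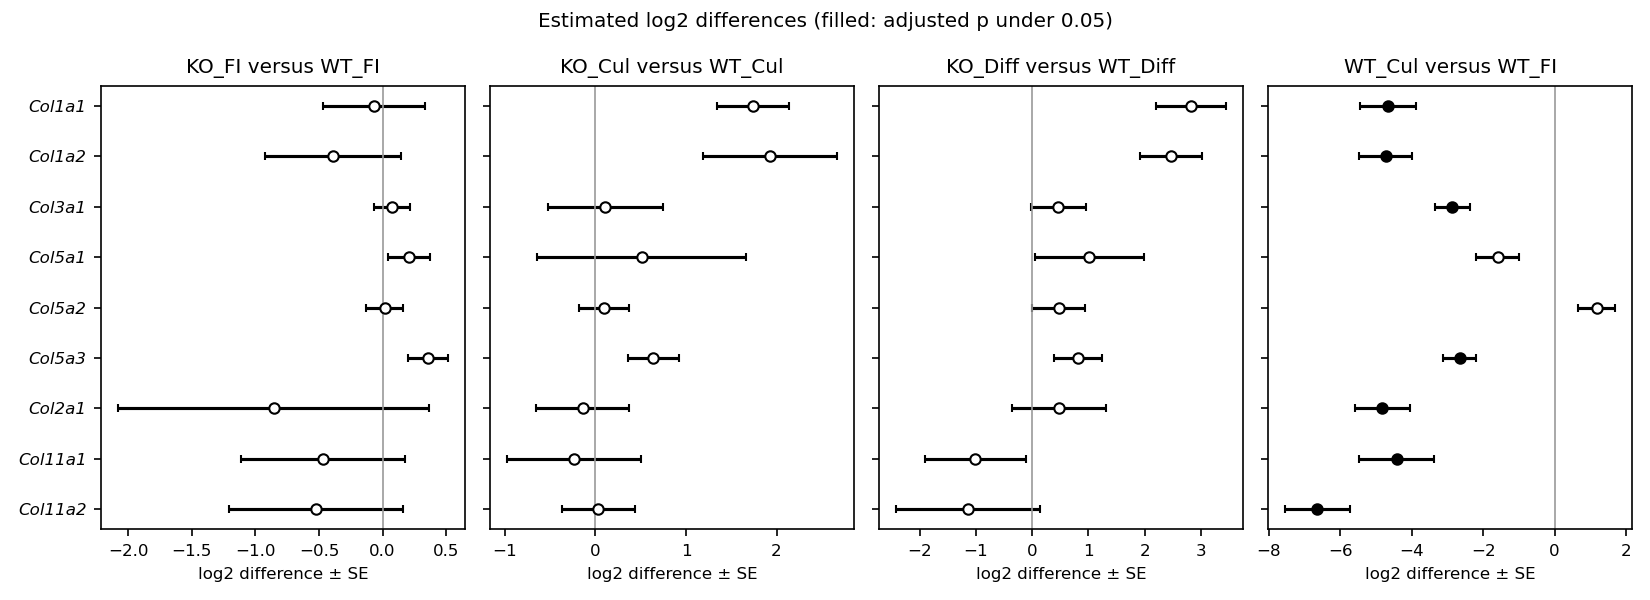
Log2 difference with its SE for each fibrillar collagen in the 4 comparisons, positive where KO is above WT or WT_Cul above WT_FI, with filled points for an adjusted p under 0.05; for KO against WT in Cul and Diff the values are a description. The comparison of WT_Cul with WT_FI has 7 filled points of 9, all below 0.

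The same group of cells thus held very different collagen levels in different tables. On CPM scaled over all 18 libraries together (joined CPM), a scale on which no test across tables was made because the tables were processed separately, WT_FI averaged 6318 joined CPM of Col1a1 in the table of WT states and 737 in the FI table, a ratio of 8.58. The ratio was 10.3 for Col1a2, 16.2 for Col2a1, 12.7 for Col11a1 and 6.66 for Col11a2, but 1.73 for Col3a1, 1.79 for Col5a2, 0.731 for Col5a1 and 0.478 for Col5a3. For WT_Cul the ratios were 125 for Col1a1, 34.6 for Col1a2 and 72.2 for Col11a1, between 2.38 (Col5a2) and 8.18 (Col2a1) for the type III, V and II chains, and 0.685 for Col11a2. KO and WT are therefore compared within tables alone.

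From high to low, Col1a1 was at 4950.1 to 7685 joined CPM in WT_FI of the table of WT states, at 491 to 1112 in KO_FI and 537 to 998 in WT_FI, at 122 to 383 in WT_Cul of the table of WT states, at 24.0 to 53.9 in KO_Diff, at 6.46 to 7.27 in KO_Cul, at 4.15 to 6.59 in WT_Diff and at 1.56 to 2.47 in WT_Cul. The neighbours whose ranges overlapped were KO_FI with WT_FI, and KO_Cul with WT_Diff. The group means of Col1a2 had the same order as those of Col1a1, but more ranges overlapped. Col1a2 was at 124 to 249 joined CPM in KO_Diff, 20.1 to 64.7 in KO_Cul, 25.5 to 40.6 in WT_Diff and 5.33 to 16.2 in WT_Cul, and KO_Cul overlapped with WT_Diff. Its WT_Cul range in the table of WT states, 191 to 555 joined CPM, overlapped with KO_Diff and with KO_FI (402 to 1320). Col3a1 spanned 2212 to 2548 joined CPM in KO_FI and 2164 to 2436 in WT_FI, 340.3 to 598 in KO_Diff and 247 to 424 in WT_Diff, and 85.7 to 227 in KO_Cul and 72.8 to 208 in WT_Cul, with overlap between the genotypes in each state.

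Col5a2 had another order. By group mean it was highest in WT_Cul of the table of WT states, at 1077 to 2255 joined CPM. It was lowest in the FI table, at 401 to 413 joined CPM in KO_FI and 354 to 469 in WT_FI. The ranges between these, of KO_Diff (696 to 1094), KO_Cul (637 to 898), WT_FI of the table of WT states (630.0 to 808), WT_Cul (592 to 805) and WT_Diff (466 to 809.8), overlapped. KO_Diff also overlapped narrowly with the highest group, and WT_Diff with WT_FI of the FI table. Over the 18 libraries the log2 joined CPM of Col5a2 had a Pearson r of -0.18 with the mean of Col1a1 and Col1a2, while Col11a1 had 0.94, Col3a1 0.92, Col5a1 0.86, Col2a1 0.85, Col5a3 0.81 and Col11a2 0.76. These are descriptions over libraries that share tables and states.

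Per length, the mix of chains differed between states. Of the summed FPKM of the 9 genes (fragments relative to transcript length and library size, scaled by the authors within a table), Col3a1 made up 32.6% to 44.7% in KO_FI and 32.9% to 43.8% in WT_FI, and Col5a2 5.09% to 6.12% in KO_FI and 5.47% to 5.96% in WT_FI. In the Cul table Col5a2 made up 65.2% to 76.9% in KO_Cul and 70.3% to 80.9% in WT_Cul, and in Diff 36.6% to 50.1% in KO_Diff and 44.6% to 55.7% in WT_Diff. Col1a2 made up 3.16% to 6.10% in KO_Cul and 0.945% to 1.84% in WT_Cul of the Cul table, and 7.41% to 17.0% in KO_Diff and 2.27% to 5.04% in WT_Diff. The WT_Cul libraries of the table of WT states had another mix, with 46.6% to 50.1% for Col5a2 and 10.7% to 16.0% for Col1a2, a Col1a2 share above those of KO_Cul in the Cul table. In WT_FI of the table of WT states the type I chains led, with 41.4% to 46.9% for Col1a2 and 29.9% to 32.3% for Col1a1.

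The type I trimer holds more Col1a1 than Col1a2 protein chains, whereas the FPKM ratio of Col1a1 to Col1a2 was at or below 1.39 in every library. It was 0.926, 1.23 and 1.39 in KO_FI and 0.825, 0.902 and 0.878 in WT_FI. In culture it was 0.124 and 0.352 in KO_Cul and 0.167 and 0.322 in WT_Cul, and in Diff 0.212 and 0.238 in KO_Diff and 0.179 and 0.178 in WT_Diff. In the table of WT states it was 0.703 and 0.758 in WT_Cul and 0.779 and 0.637 in WT_FI. The ratio was thus below 1 in every library outside KO_FI.

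**Figure D4:**
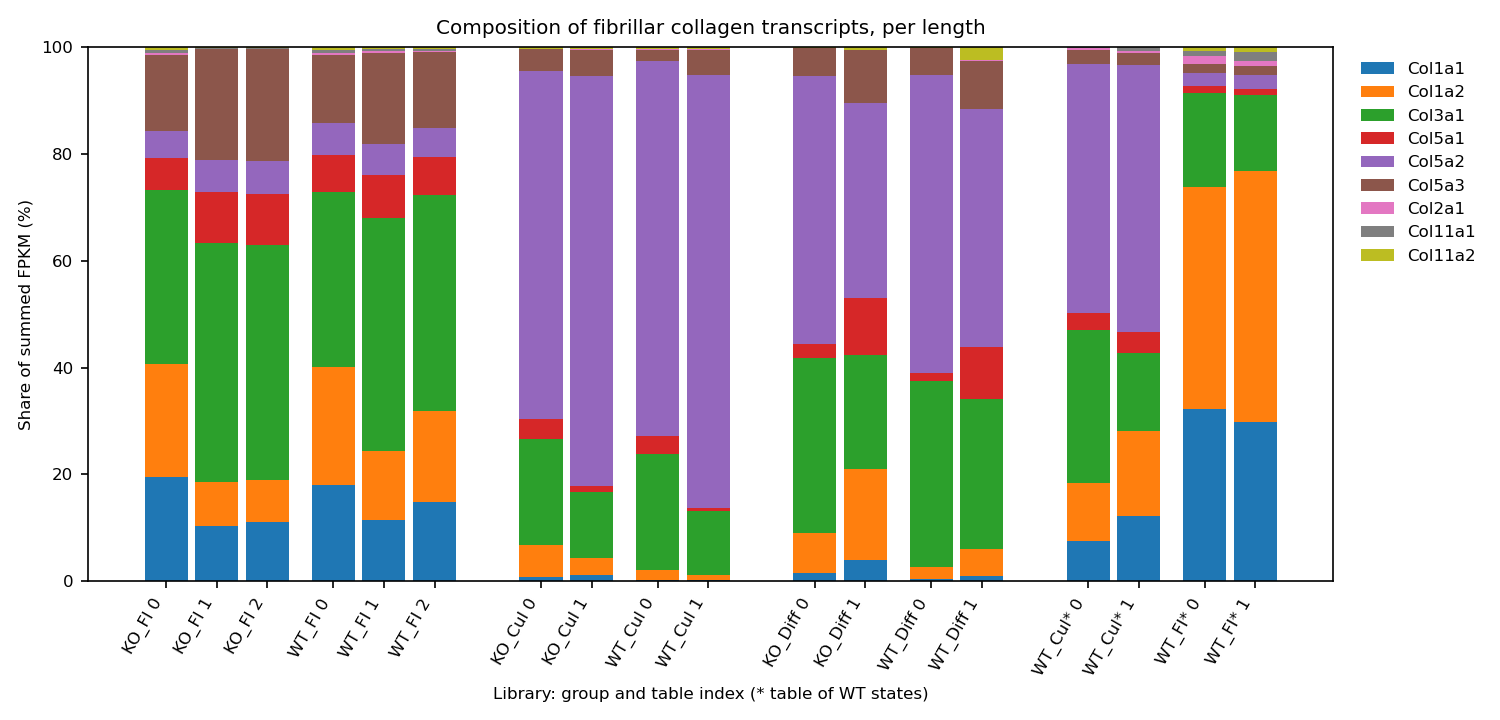
Share of each chain in the summed FPKM of the 9 fibrillar collagens, as stacked bars in percent, 1 bar per library, KO left of WT. Col5a2 takes the largest share in every library of the Cul and Diff tables, and Col3a1 in every library of the FI table.

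The genes that modify, trim and bind fibrillar collagen were set beside the chains. Between KO_FI and WT_FI none of the genes tested in the 6 pathway lists passed. The 4 with the smallest p-values were Bgn (biglycan, a fibril-bound proteoglycan), Bmp1 (which cleaves the C-terminal propeptide), Col9a1 (a chain that decorates cartilage fibrils) and Mrc2 (the receptor that takes up collagen fragments). Bgn was at 799, 790.4 and 831 CPM in KO_FI and 585, 458 and 552 in WT_FI (log2 difference 0.60, SE 0.14, adjusted p 0.774 with edgeR and 0.00932 with DESeq2). Bmp1 was at 655, 809 and 725 CPM in KO_FI and 537, 468 and 487 in WT_FI (0.55, SE 0.14, adjusted p 0.822 with edgeR and 0.0214 with DESeq2). Mrc2 was at 394, 574 and 427 CPM in KO_FI and 309.6, 296 and 292 in WT_FI (0.64, SE 0.17, edgeR adjusted p 0.830). For these genes every KO_FI library lay above every WT_FI library, as for 5.57% of all genes tested, and Col9a1 lay below (0.325 to 0.640 CPM in KO_FI and 1.03 to 1.69 in WT_FI), as for 3.65%.

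In culture the folding and modification genes had 16 of 19 tested estimates above 0 (median log2 difference 0.30), the cleavage and crosslinking genes 9 of 11 (0.26), the fibril-associated collagens and proteoglycans 9 of 16 (0.12), the collagen receptors 5 of 9 (0.07) and the degradation genes 6 of 6 (0.38), beside a median of 0.02 over all genes. Bgn was at 180.1 and 113 CPM in KO_Cul and 86.0 and 34.1 in WT_Cul (1.29, SE 0.51). Mrc2 was at 51.2 and 38.5 CPM in KO_Cul and 25.4 and 25.9 in WT_Cul (0.81, SE 0.23). Col16a1, a fibril-associated collagen, was at 11.6 and 9.15 CPM in KO_Cul and 5.56 and 4.04 in WT_Cul (1.11, SE 0.33). Pcolce, which enhances propeptide cleavage, was at 8.52 and 4.22 CPM in KO_Cul and 3.54 and 1.29 in WT_Cul (1.40, SE 0.65). With 1 library left out, the difference spanned 0.77 (without WT_Cul 1) to 2.10 (without WT_Cul 0) for Bgn and 0.80 (without KO_Cul 0) to 2.30 (without WT_Cul 0) for Pcolce. Of the 15 pathway genes named by the largest differences, these 4, Plod1 and Loxl2 (6 in all) had both KO libraries above both WT libraries, beside 11.8% of all genes, and nothing is read from that count of genes chosen by size. The rest overlapped, and 8 of the 15 changed sign with 1 library left out. Dcn (decorin), at 1.56 and 15.4 CPM in KO_Cul and 0.769 and 4.83 in WT_Cul, followed the index and also belongs to the fibroblast marker list.

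In differentiation medium the fibril-associated collagens and proteoglycans had 13 of 15 tested estimates above 0 (median log2 difference 0.91), the cleavage and crosslinking genes 8 of 11 (0.31), the receptors 6 of 8 (0.25), the folding genes 12 of 19 (0.07) and the degradation genes 3 of 6 (0.03), beside a median of -0.01 over all genes. Lox, which crosslinks collagen, was at 90.8 and 55.0 CPM in KO_Diff and 53.5 and 26.1 in WT_Diff (0.87, SE 0.52). Plod2, a lysyl hydroxylase that prepares crosslinks, was at 80.8 and 74.0 CPM in KO_Diff and 60.3 and 42.9 in WT_Diff (0.59, SE 0.37). Prelp, a leucine-rich proteoglycan, was at 5.78 and 9.08 CPM in KO_Diff and 4.21 and 2.48 in WT_Diff (1.15, SE 0.58). Adamts2, which cleaves the N-terminal propeptide, was at 2.59 and 7.66 CPM in KO_Diff and 1.17 and 3.14 in WT_Diff (1.25, SE 0.85), with groups that overlapped. Mmp2 and Mmp14, which degrade matrix, had differences of -0.47 (SE 0.72) and -0.09 (SE 0.70), and with 1 library left out these spanned -1.78 to 0.23 and -0.94 to 0.79. Of the 14 pathway genes named by the largest differences, 3 (Lox, Plod2 and Prelp) had both KO libraries above both WT libraries, beside 6.39% of all genes. As in Cul, nothing is read from that count of genes chosen by size. With 1 library left out, the difference spanned 0.44 to 1.49 for Lox and 0.31 (without KO_Diff 1) to 2.12 (without WT_Diff 1) for Adamts2, and 7 of the 14 changed sign.

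**Figure D5:**
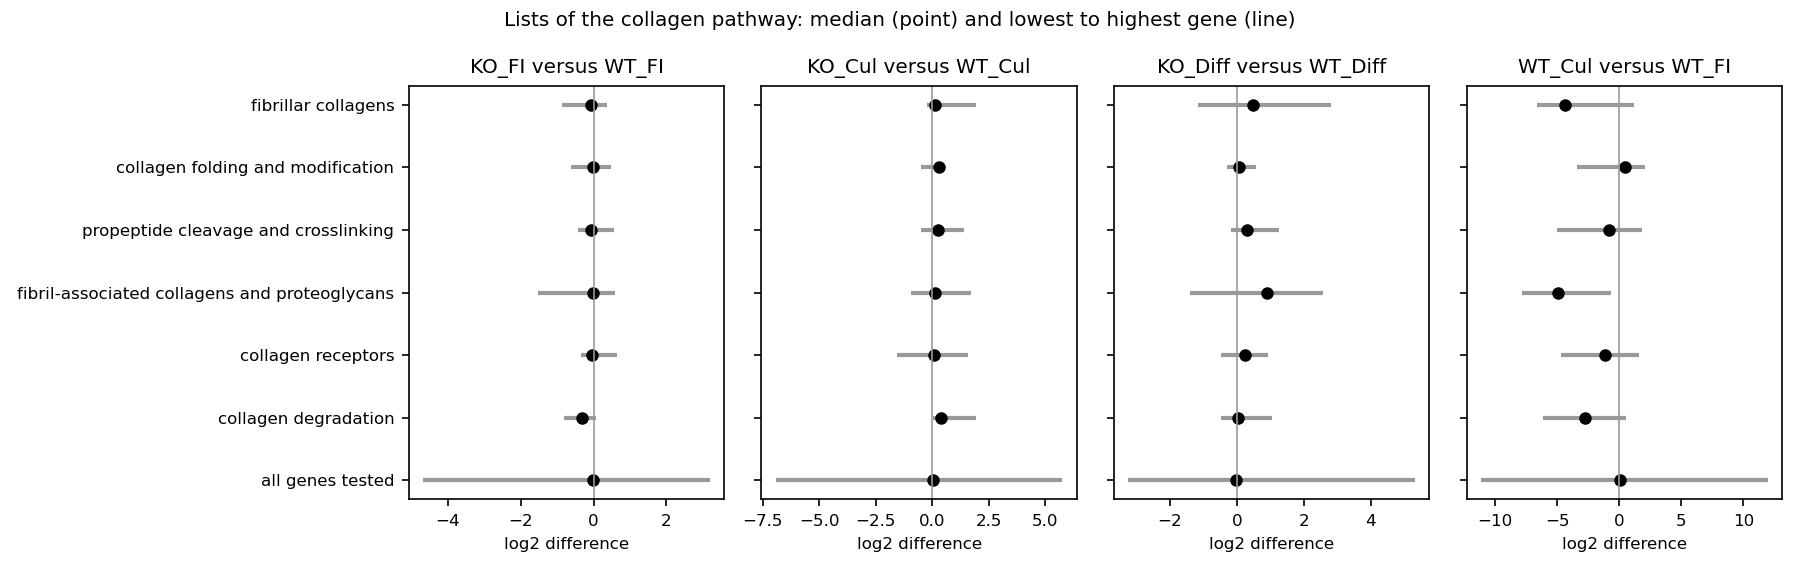
Median log2 difference (point) and lowest to highest value (line) of the genes tested in the fibrillar collagens, in each collagen pathway list and over all genes tested, in the 4 comparisons. The median of the fibril-associated list is 0.91 in KO_Diff against WT_Diff and -4.94 in WT_Cul against WT_FI.

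Between WT_Cul and WT_FI the genes around the fibril were counted by role. Among all genes tested, 16.0% were called lower and 12.6% higher. Of the 19 fibril-associated collagens and proteoglycans 14 passed and were lower and 0 were higher, with a median log2 difference of -4.94. Kera (keratocan, -7.86), Aspn (asporin, -7.79) and Prelp (-6.25) were among those that fell (edgeR adjusted p 0.00962 each), and Kera also belongs to the tenocyte marker list. Of 20 folding and modification genes 1 passed higher (P4ha3, a prolyl hydroxylase subunit, 2.05, adjusted p 0.0389) and 1 lower (Leprel2, another prolyl hydroxylase, -2.09, adjusted p 0.0190), with a median of 0.43. Neither P4ha3 (adjusted p 0.105 and 0.320 without WT_FI 0 and WT_FI 1) nor Leprel2 (0.115 without WT_FI 0) held without these libraries.

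Of 13 cleavage and crosslinking genes 2 passed higher and 4 lower, beside 12.6% and 16.0% of all genes tested. Pcolce (-3.81, adjusted p 0.0110) and Adamts3, a procollagen N-proteinase (-5.04, adjusted p 0.0175), fell, while Adamts14, of the same family, rose by 1.82 (adjusted p 0.0188, but 0.191 and 0.172 without WT_FI 0 and WT_FI 1). Of 9 receptors 1 passed higher and 2 lower, beside the same shares, and nothing is read from these small counts. Ddr1, a collagen-binding kinase, rose by 1.57 (adjusted p 0.0416, and 0.174 and 0.381 without WT_FI 0 and WT_FI 1), Itga10, an integrin subunit, fell by 4.71 (adjusted p 0.00962), and Mrc2 fell by 1.89 (adjusted p 0.0485, and 0.185 and 0.0698 without WT_FI 0 and WT_FI 1). Of 7 degradation genes 4 passed, all lower, among them Fap (-6.17, adjusted p 0.00967), Mmp13 (-4.56, adjusted p 0.0104) and Ctsk (-2.73, adjusted p 0.0152). All adjusted p-values here are from edgeR.

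The genes whose levels were most like those of the type I chains were ranked by Pearson r between log2 joined CPM and the mean of Col1a1 and Col1a2 over the 18 libraries, among 13469 genes. The first 5 outside the 9 were Mfap4 (a microfibril-associated protein, r = 0.98), Adamts2 (0.98), Cnp (a nucleotide phosphodiesterase of myelin, 0.97), 3632451O06Rik (0.97) and Fmod (0.97). Adamts2 spanned 0.691 to 99.0 joined CPM and Fmod 0.207 to 2111. The libraries share tables and cell states, so r describes the pattern and carries no p. Within Diff, the KO and WT libraries overlapped for Mfap4 (0.360 and 1.84 CPM in KO_Diff and 0.137 and 0.528 in WT_Diff), Cnp (9.42 and 17.9 CPM in KO_Diff and 7.68 and 15.7 in WT_Diff) and Adamts2, and did not for the other two. There 3632451O06Rik was at 1.77 and 3.53 CPM in KO_Diff and 1.18 and 0.822 in WT_Diff. Fmod was at 2.89 and 1.68 CPM in KO_Diff and 0.888 and 0.352 in WT_Diff. Both KO libraries lay above both WT libraries for 6.39% of all genes tested. The ranking included the Diff libraries, in which the type I chains were chosen as higher in KO. Nothing is therefore read from the lack of overlap.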

How the data were processed

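The series holds 28 samples, of which 18 polyA RNA-seq libraries were used and 10 ChIP and input samples were not analysed here. The deposited tables give, per the file headers, raw fragments per gene and library, which are estimated counts. Between 1.42% and 8.18% of a library's values above 0 departed from whole numbers by over 0.01, and all were rounded. Per the file headers, the deposited FPKM values carry the authors' scaling inside a table. Bowtie, TopHat, Cuffdiff, SICER and mm9 appear in the submitters' processing notes, without roles or versions. No source says that strand was used in counting. The files' letter for the proliferating state was matched to Cul because the other states were accounted for, and the columns do not give the replicate numbers of the labels. In all, 8 columns of per-sample values (the authors' scaled fragments) were not used. Genes without an OK status in every library were left out (22 of FI, 12 of Cul, 19 of Diff, 27 of WT states). Counts of libraries in a group differed by a chi-square of at least 26.3 per degree of freedom, so none was a copy of another.

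For each table alone, edgeR's quasi-likelihood F test was fitted (edgeR 4.0.16, R 4.3.3, robust, TMM, filterByExpr) across all genes, with Benjamini-Hochberg adjustment and a threshold of 0.05. DESeq2 1.42.0, limma 3.58.1 on log2(FPKM + 1) or log2(FPKM + 0.1), other scalings, no filter, replicate blocks and leaving out libraries were alternatives. The collagens and all lists were chosen with earlier results of these data known. In the FI table, same-numbered KO and WT libraries deviated together (correlations 0.869, 0.716 and 0.541). KO_FI 2 also did so with WT_FI 1 (0.571), and KO_FI 1 with WT_FI 2 (0.320). Library 0 was thus set apart in both genotypes, but a pairing of libraries 1 and 2 by number is not shown, and the labels give none. The block changed no call of a fibrillar collagen there. Besides the 9 genes, Col24a1 and Col27a1, the named genes were up to 3 of each pathway list with the smallest p (KO_FI against WT_FI, and WT_Cul against WT_FI) or the largest difference at 5 CPM or more (Cul and Diff), the 5 most similar genes over 18 libraries (log2 joined CPM with a prior count of 2, mean of at least 1 CPM), and Pdgfra, Pdgfrb, Scx, Pecam1, Ptprc, Sox10, Acan and Pax7 of the marker lists.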

Additional observations from a re-analysis of the deposited data

Results flagged for a closer look

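Over the groups of 4 or 5 WT libraries that lie in more than 1 table, single libraries stood far from the rest for 2 of the 18 sets of values examined. These groups pool tables that differ in level, and such a difference can itself set a library apart. No chance rate is therefore given. Col3a1 was at 5003 joined CPM in the WT_FI library 0 of the table of WT states, and the other 4 WT_FI libraries were at 2164 to 2819 joined CPM. Col11a1 was at 34.1 joined CPM in the WT_Cul library 1 of the table of WT states, and the other 3 WT_Cul libraries were at 0.235 to 4.46 joined CPM. Both libraries enter the comparison of WT_Cul with WT_FI, and both come from the table in which the type I and XI chains of WT_FI were higher than in the FI table.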

How the results depend on the processing

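Col11a1 rested on 11 to 20 fragments per library in Cul, which limits its precision there. With edgeR 0 genes were called between KO_FI and WT_FI, against 118 with DESeq2, 1 and 3 with limma on log2(FPKM + 1) and log2(FPKM + 0.1), 1 with a mean FPKM of at least 1, and 1 without both libraries of index 0, and the fibrillar collagens had 0 calls in each. Between KO_Cul and WT_Cul 3 genes were called with DESeq2, 8 with log2(FPKM + 0.1) and 5 with a mean FPKM of at least 1. The replicate block gave 3 genes in Cul (correlation of same-numbered libraries 0.825), 147 in Diff (0.817) and 6176 in the WT states (0.470), where the labels do not say that same-numbered libraries share anything and 2 pairs are too few to show it, although in Cul and Diff libraries of one index were alike in Xist and other genes. Leaving out 1 library gave 0 genes in the 3 KO comparisons and 2063 to 8050 in the WT states (8050 without WT_Cul 1, 2108 and 2063 without WT_FI 0 and WT_FI 1). Of the 9 collagens, 3 to 9 were then above 0 in Cul (3 without KO_Cul 0 or WT_Cul 1) and 6 to 8 in Diff, and 6 to 8 passed in the WT states. Col1a1 (-0.56 to 0.22 between KO_FI and WT_FI), Col5a2 (-0.059 to 0.15), Col27a1 (-0.13 to 0.38), Mmp9 (-1.22 to 0.53) and Mmp8 (-1.10 to 0.55) changed sign without ever passing. Between KO and WT, the difference of 6 of the 9 collagens changed sign in Cul and of 3 in Diff (Col2a1, Col11a2 and Col5a1 in both, with Col3a1, Col5a2 and Col11a1 in Cul). The cause of these changes of sign was not tested. Col1a1, Col1a2 and Col5a3 kept their sign in Cul and Diff. Both KO libraries lay above both WT libraries for these genes, so leaving out 1 library could hardly reverse it. Nothing is read from the kept sign.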
